A study of Arabidopsis thaliana with 4 samples.

Results

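Heat shock factors (HSFs) are transcription factors, and 10 of the 21 genes that encode them in Arabidopsis thaliana are described here: HSFA1A, HSFA1B, HSFA1D, HSFA1E, HSFA2, HSFA3, HSFA4A, HSFA8, HSFB2A and HSFB2B. They were chosen by gene identifier, with earlier results of these data known. All 10 were among the 33602 genes of the deposited expression table. The series asked which transcripts respond early to glutamate, an amino acid that plants use both as a nitrogen compound and as a signal. Whole 14-day-old seedlings of the Col-0 ecotype were grown hydroponically in 1/2 MS (-N), a salt mixture without nitrogen, and both groups thus shared growth without added nitrogen. The labels put all 4 libraries in a single batch. The 0.5 h glutamate group (2 libraries) had been moved for 0.5 h to the same mixture with 2.5 mM glutamate, and the 0 h group (2 libraries) had received none. No library came from seedlings moved to fresh medium without glutamate, so the effects of glutamate, of the move and of the elapsed time cannot be told apart. Nothing in the labels tells if replicate libraries were raised as separate cultures, so each p-value reflects library-to-library spread alone, and that spread may be technical.

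HSF proteins bind heat shock elements, short inverted repeats in the promoters of chaperone genes, and switch those genes on when proteins unfold. Class A HSFs carry an activation domain. The HSFA1 proteins are present before stress and start the response, HSFA2 and HSFA3 are made during it and prolong it, and most class B HSFs act as repressors. Besides heat, several HSF genes of Arabidopsis respond to oxidative stress, high light, wounding or microbial elicitors.

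Recovered reads numbered 21776595 and 24599752 in the 0.5 h glutamate libraries and 27674435 and 23669908 in the 0 h libraries. The values are RPKM, reads scaled to transcript length and to library size, and 3 reads in a gene of 1 kb were worth 0.104 to 0.152 RPKM. At 0.5 h the markers of photosynthetic shoot tissue had summed levels of 10285 and 8111 RPKM, against 13768 and 11549 RPKM at 0 h. Of these 6 markers 3 were called lower, against 14.6% of all genes tested. Of 9 root markers 5 were high enough to be tested (mean of 1 RPKM or more), none was called, and these summed to 28.7 and 21.2 RPKM at 0.5 h and to 51.3 and 25.6 RPKM at 0 h. The root markers COBL9, EXPA7, EXPA18 and LRX1 were not tested and stayed at 1.09 RPKM or less in every library. Shoot tissue was thus represented, and root tissue by the 5 tested markers only, with shoot transcripts far above root transcripts. The part of such shifts in the results below was not tested, and in whole seedlings fewer cells of a type and less RNA per cell cannot be told apart.

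After 0.5 h of glutamate, 7 of the 10 HSF genes were higher, 2 were lower and 1 did not pass the test. Among all 17750 genes tested, 16.3% were higher and 14.6% lower. The share of higher genes among the HSF genes was well above that background and the share of lower genes close to it. The 10 genes had been chosen with earlier results of these data known, so this contrast is a description and not a test. Calls in either direction covered 9 of the 10 genes, against 30.8% of all genes tested, and in those 9 genes the groups did not overlap, which was so for 66.2% of all genes tested. The median change of the 10 genes was 1.35 on the log2(RPKM + 1) scale, against -0.06 for all genes tested. That scale adds 1 RPKM to every value before the logarithm is taken and understates the change of low genes. Calls were made with limma at an adjusted p (Benjamini-Hochberg) under 0.05, and all 10 genes reached the mean of 1 RPKM required for testing. With 2 libraries on each side, exact permutation p-values start at 0.333 and are not given. Higher genes made up 52.8% of all calls, but 36.0% when libraries were scaled to their totals and 63.0% without the filter on low genes. The median change of all genes was -0.23 with library totals, -0.15 with quantile normalization and -0.14 when centred on control genes, so differences of about that size carry no direction here.

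**Figure D1:**
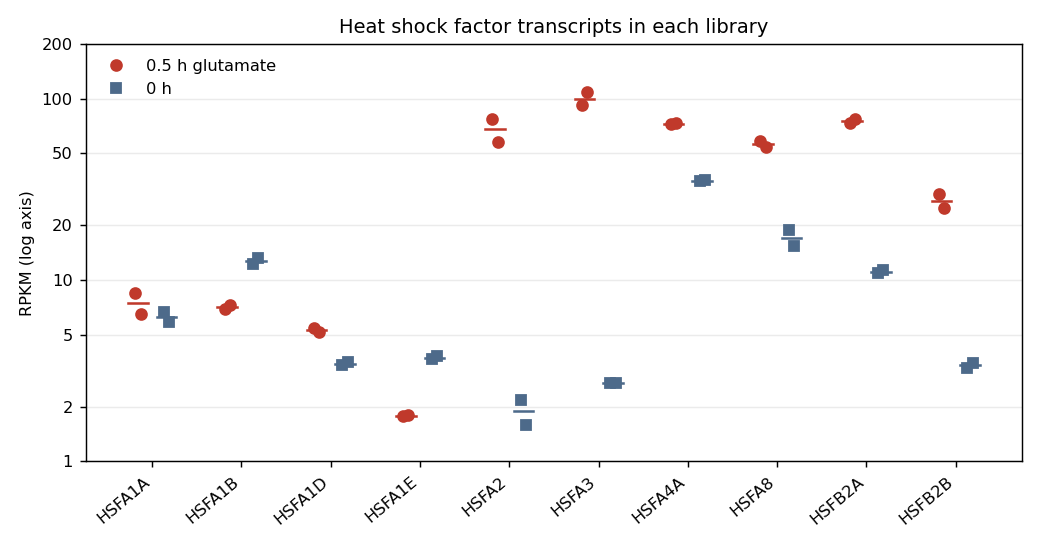
RPKM (log axis) of the 10 heat shock factor genes in each library, with red circles for 0.5 h glutamate, blue squares for 0 h and a line at each group mean (n = 2 each). The circles of HSFA2 and HSFA3 lie between 57.5 and 108 RPKM and their squares between 1.58 and 2.71 RPKM, while the HSFA1 genes stay at 13.2 RPKM or less in every library.

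Of the 4 HSFA1 genes 2 fell, 1 rose and 1 did not pass the test, and all had smaller changes than the other 6 genes. HSFA1 proteins are held inactive by chaperones in unstressed cells, and their transcripts are known to be present without stress. Gene positions are the RefSeq spans on assembly TAIR10.1, from the first to the last transcribed base. HSFA1B (AT5G16820, chr5:5530195-5532889, plus strand) had 6.94 and 7.23 RPKM in the 0.5 h glutamate libraries, against 12.3 and 13.2 RPKM in the 0 h libraries. Its groups did not overlap, and its log2 change was -0.77 ± 0.12 (SE; limma adjusted p = 0.00718). AT5G16830, which overlaps it by 44 bases on the other strand, was higher in both 0.5 h libraries, with 127 and 112 RPKM at 0.5 h and 34.3 and 28.1 RPKM at 0 h. HSFA1E (AT3G02990, chr3:673428-676428, plus strand) had 1.78 and 1.79 RPKM at 0.5 h, from 65 and 76 reads, against 3.64 and 3.78 RPKM at 0 h, from 195 and 177 reads. Both 0.5 h libraries lay well below both 0 h libraries, and the log2 change was -0.76 ± 0.14 (limma adjusted p = 0.0104). The fall of HSFA1E missed the threshold when genes of any level were tested (limma adjusted p = 0.0774).

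HSFA1D (AT1G32330, chr1:11656964-11660471, minus strand) changed the other way, with 5.45 and 5.14 RPKM at 0.5 h and 3.39 and 3.52 RPKM at 0 h. The groups did not overlap, yet its call was the weakest of the 9, with a log2 change of 0.50 ± 0.13 (limma adjusted p = 0.0367). It was lost whichever 1 library was left out (adjusted p = 0.0956 to 0.185), with library totals (0.0851), when centred on control genes (0.0752) and without the filter (0.149), all in limma. HSFA1D and HSFA1E are known to act together in inducing HSFA2 under high light and heat. HSFA1A (AT4G17750, chr4:9869818-9871646, minus strand), a founding member of the family and an activator of early heat-induced genes, had 8.47 and 6.47 RPKM at 0.5 h and 6.64 and 5.88 RPKM at 0 h. Its groups overlapped, and its log2 change of 0.21 had a 95% interval from -0.20 to 0.63 (limma adjusted p = 0.388). As a group the HSFA1 genes summed to 22.6 and 20.6 RPKM at 0.5 h and to 26.0 and 26.4 RPKM at 0 h. Within that sum HSFA1B made up 30.7% and 35.0% at 0.5 h, against 47.4% and 50.03% at 0 h. HSFA1D made up 24.1% and 24.9% at 0.5 h, against 13.1% and 13.3% at 0 h. HSFA1B was thus the most abundant of the group in both 0 h libraries, while HSFA1A exceeded it in 1 of the 2 libraries at 0.5 h.

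HSFA2 and HSFA3 showed the largest rises among the 10 genes. HSFA2 (AT2G26150, chr2:11135624-11137792, plus strand) encodes an activator that accumulates during stress and amplifies chaperone expression. It had 77.6 and 57.5 RPKM in the 0.5 h glutamate libraries, from 2181 and 1875 reads, and 2.19 and 1.58 RPKM in the 0 h libraries, from 89 and 56 reads. Both 0.5 h libraries stood far above both 0 h libraries, and the ratio of the mean RPKM was 35.9. On the log2(RPKM + 1) scale the change was 4.57 ± 0.20 (limma adjusted p = 9.36e-05), above that of 99.5% of all genes tested. HSFA2 is known to be spliced in several ways, and RefSeq lists 4 mRNAs of 2 to 4 exons for it. The table holds 1 value per gene and does not separate them.

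HSFA3 (AT5G03720, chr5:971142-974326, minus strand) encodes an activator that is known to be switched on by the drought and heat factor DREB2A. Its level was 91.8 and 108 RPKM at 0.5 h, from 2476 and 3390 reads, and 2.71 and 2.69 RPKM at 0 h, from 106 and 92 reads. These libraries did not overlap either, with a ratio of mean RPKM of 37.0 and a log2 change of 4.77 ± 0.14 (limma adjusted p = 4.19e-05). HSFA3 was thereby the most abundant of the 10 genes at 0.5 h, at 100.01 ± 11.7 RPKM (SD, n = 2), and next to last at 0 h, at 2.70 ± 0.01 RPKM. HSFA3 lies 33 bases downstream of CTR1 (AT5G03730), an ethylene signalling kinase gene on the same strand. CTR1 was at 28.8 and 31.9 RPKM at 0.5 h and at 33.7 and 32.9 RPKM at 0 h, so its libraries differed far less than those of HSFA3. AT5G03710, which overlaps HSFA3 on the other strand, stayed at 0.327 RPKM or less in every library.

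HSFA4A and HSFA8, class A members linked to responses to reactive oxygen species, were already well expressed at 0 h and rose less. HSFA4A (AT4G18880, chr4:10347479-10349902, minus strand) had 72.3 and 73.2 RPKM at 0.5 h, against 35.0 and 35.6 RPKM at 0 h. The libraries of each group lay within 1 RPKM of each other, and the log2 change was 1.02 ± 0.11 (limma adjusted p = 0.00195). HSFA8 (AT1G67970, chr1:25484449-25486512, minus strand) had 58.2 and 54.0 RPKM at 0.5 h and 18.8 and 15.3 RPKM at 0 h. Its groups were also apart, by a log2 change of 1.67 ± 0.15 (limma adjusted p = 0.000807).

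The HSFB2 pair, which belongs to class B, rose together. HSFB2A (AT5G62020, chr5:24915807-24917643, plus strand) had 73.5 and 77.3 RPKM in the 0.5 h glutamate libraries and 10.9 and 11.3 RPKM in the 0 h libraries. The ratio of mean RPKM was 6.80, and the log2 change was 2.66 ± 0.12 (limma adjusted p = 9.85e-05). HSFB2B (AT4G11660, chr4:7042354-7044708, plus strand) had 29.8 and 24.99 RPKM at 0.5 h and 3.29 and 3.48 RPKM at 0 h, a ratio of mean RPKM of 8.10. Its log2 change of 2.69 ± 0.14 (limma adjusted p = 0.00015) was close to that of HSFB2A, and in both genes every 0.5 h library exceeded every 0 h library. The level of HSFB2B is uncertain, because a fraction of 0.329 of its reads is marked as shared with another locus. The gene AT4G11670 overlaps it by 308 bases on the other strand and had 9.45 and 11.3 RPKM at 0.5 h and 7.75 and 8.52 RPKM at 0 h. The use of strand in counting is not given in the sources used here, so reads of a gene and of transcripts antisense to it, which are known for HSFB2A, cannot be told apart.

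**Figure D2:**
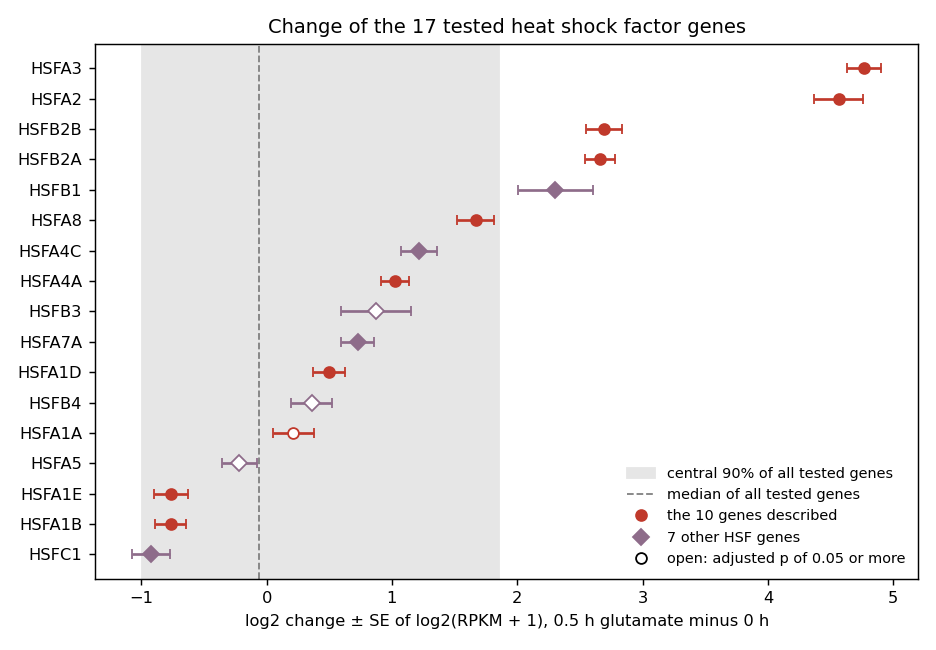
Log2 change of log2(RPKM + 1) with its standard error (0.5 h glutamate minus 0 h, n = 2 each) for the 17 HSF genes that were tested, circles for the 10 genes described and diamonds for 7 others, with open symbols at an adjusted p of 0.05 or more in limma. The grey band holds the central 90% of all genes tested, from -0.99 to 1.85, and HSFA3, HSFA2, HSFB2B, HSFB2A and HSFB1 lie to its right.

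The order of the 10 genes by level differed between the groups. At 0.5 h of glutamate it ran from HSFA3 through HSFB2A (75.4 RPKM), HSFA4A (72.8), HSFA2 (67.6), HSFA8 (56.1), HSFB2B (27.4), HSFA1A (7.47), HSFA1B (7.09) and HSFA1D (5.30) to HSFA1E (1.78 RPKM), as means of 2 libraries. The libraries overlapped between the neighbours HSFA4A and HSFA2, between HSFA2 and HSFA8, and between HSFA1A and HSFA1B. At 0 h it ran from HSFA4A (35.3 RPKM) through HSFA8 (17.1), HSFA1B (12.8), HSFB2A (11.1), HSFA1A (6.26), HSFA1E (3.71), HSFA1D (3.46), HSFB2B (3.38) and HSFA3 (2.70) to HSFA2 (1.88 RPKM). There only HSFA1D and HSFB2B overlapped as neighbours. HSFA2 and HSFA3 were thus the lowest of the 10 genes at 0 h, below every HSFA1 gene, and were above every HSFA1 gene at 0.5 h.

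Summed over all 21 HSF genes, transcript levels came to 703 and 755 RPKM at 0.5 h of glutamate and to 217 and 225 RPKM at 0 h. The HSFA1 group held 3.22% and 2.73% of that sum at 0.5 h, against 12.0% and 11.7% at 0 h. HSFA3 held 13.1% and 14.3% at 0.5 h, against 1.25% and 1.20% at 0 h, and HSFA2 11.1% and 7.62% at 0.5 h, against 1.008% and 0.702% at 0 h. The HSFB2 pair held 14.7% and 13.5% at 0.5 h and 6.54% and 6.57% at 0 h. HSFA4A held 10.3% and 9.69% at 0.5 h, against 16.1% and 15.8% at 0 h. HSFA7A, which is not among the 10 genes, held 17.2% and 13.6% at 0.5 h, against 31.2% and 29.5% at 0 h. The shares of HSFA4A and HSFA7A were thus smaller at 0.5 h, although their RPKM was higher. All 10 genes together made up 60.6% and 55.1% of the sum at 0.5 h, against 45.6% and 42.8% at 0 h, a difference of 13.7 percentage points between the means. These shares were not tested. They include HSFB1, for which the shared-read fraction is 1, and without HSFB1 the 10 genes made up 72.8% and 74.2% at 0.5 h and 51.4% and 51.2% at 0 h.

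**Figure D3:**
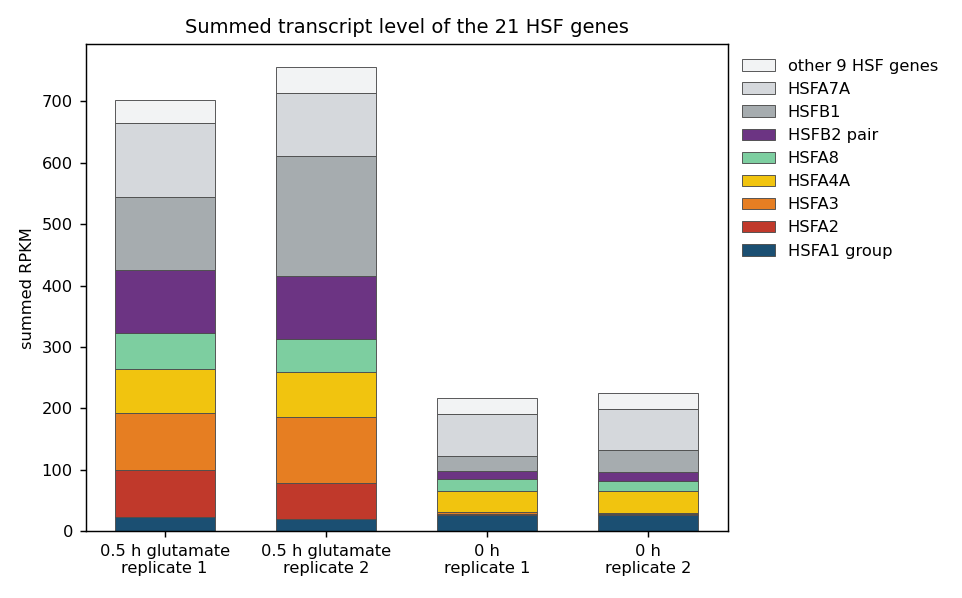
Summed RPKM of the 21 HSF genes in each library, stacked by gene or group of genes, with the 0.5 h glutamate libraries on the left and the 0 h libraries on the right. The blocks of HSFA2, HSFA3 and the HSFB2 pair are thin at 0 h and broad at 0.5 h, while the HSFA1 block at the base stays between 20.6 and 26.4 RPKM.

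Promoter sequence upstream of the annotated start was read from RefSeq, assembly TAIR10.1, to see which HSF genes carry the element that HSF proteins bind. A paired heat shock element was taken as GAANNTTC or TTCNNGAA and a triple element as GAANNTTCNNGAA or TTCNNGAANNTTC, on both strands; each triple element holds 2 overlapping pairs. In the 300 bases upstream, 19.3% of 27366 protein-coding genes had a paired element and 0.468% a triple one. Of the 10 genes 3 had a paired element, namely HSFA1E, HSFA2 and HSFA4A, and HSFA2 alone had a triple one. Shown here are the stretches before these 3 genes, before the HSFB2 genes, which rose and have no element in the window, and before HSFA7A, which with HSFA7B made up the other HSF genes with a triple element. Heat shock elements are in capitals, and each line ends at the base before the annotated start.
HSFA2, chr2:11135474-11135623, plus strand: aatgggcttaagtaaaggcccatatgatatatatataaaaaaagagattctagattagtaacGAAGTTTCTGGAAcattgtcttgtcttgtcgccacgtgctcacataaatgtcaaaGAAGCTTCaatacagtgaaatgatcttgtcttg
HSFA1E, chr3:673228-673427, plus strand: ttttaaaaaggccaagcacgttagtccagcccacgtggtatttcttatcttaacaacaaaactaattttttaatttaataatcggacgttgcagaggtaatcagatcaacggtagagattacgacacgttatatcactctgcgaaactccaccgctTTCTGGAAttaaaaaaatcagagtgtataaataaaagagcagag
HSFA4A, chr4:10349903-10350102, minus strand: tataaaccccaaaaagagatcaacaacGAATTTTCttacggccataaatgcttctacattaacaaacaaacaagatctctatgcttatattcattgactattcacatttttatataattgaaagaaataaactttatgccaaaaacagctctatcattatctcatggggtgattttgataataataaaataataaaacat
HSFB2A, chr5:24915607-24915806, plus strand: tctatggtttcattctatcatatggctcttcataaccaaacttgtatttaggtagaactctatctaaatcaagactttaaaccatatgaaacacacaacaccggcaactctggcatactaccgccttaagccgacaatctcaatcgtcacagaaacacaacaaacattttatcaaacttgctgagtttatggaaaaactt
HSFB2B, chr4:7042154-7042353, plus strand: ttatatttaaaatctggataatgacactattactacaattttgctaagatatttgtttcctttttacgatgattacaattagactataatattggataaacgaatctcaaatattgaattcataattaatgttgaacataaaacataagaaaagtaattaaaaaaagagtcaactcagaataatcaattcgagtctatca
HSFA7A, chr3:19264941-19265140, plus strand: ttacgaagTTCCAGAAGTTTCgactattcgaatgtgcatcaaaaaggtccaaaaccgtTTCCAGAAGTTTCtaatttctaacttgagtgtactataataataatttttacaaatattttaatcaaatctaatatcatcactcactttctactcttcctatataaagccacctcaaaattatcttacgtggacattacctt
The triple element of HSFA2 lies 88 to 76 bases upstream of its start and reads GAAGTTTCTGGAA, and a further pair, GAAGCTTC, lies 33 to 26 bases upstream. HSFA7A has the triple element TTCCAGAAGTTTC at 192 to 180 and again at 142 to 130 bases upstream. HSFA1E, which fell, has a pair close to its start, at 44 to 37 bases, and HSFA4A has one at 173 to 166 bases. The window of HSFA3 runs into CTR1 from 33 bases upstream and is not printed. It held no heat shock element. With 1000 bases upstream, 7 of the 10 genes had a paired element, against 52.4% of all genes, and HSFA2 was again the member with a triple one, against 1.70% of all genes.

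Other stress motifs were each found in 1 to 4 of the 10 genes. TTGAC, the W-box core bound by WRKY factors, stood within 300 bases of HSFA2, HSFA3, HSFA4A and HSFB2B, which were all higher, and of 50.4% of all genes. The other higher genes, HSFA1D, HSFA8 and HSFB2A, had none. ACGTG, the core bound by factors of abscisic acid signalling, stood in the windows of HSFA2, HSFA1B, HSFA1D and HSFA1E, of which 2 were higher and 2 lower, and of 25.6% of all genes. The drought element bound by DREB factors, ACCGAC or GCCGAC, was found in the windows of HSFA1A and HSFB2A and of 8.23% of all genes. The match of HSFA1A, at 120 to 115 bases upstream, lies inside the neighbouring gene AT4G17760 on the other strand, 114 bases away. CGCGT, a core bound by calmodulin-binding CAMTA factors, was found in HSFA1E and in 7.88% of all genes. All were searched on both strands. A match in a window describes its letters and does not show binding.

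Of the 11 other HSF genes 7 reached the level for testing, and 3 of these were higher and 1 lower, with a median log2 change of 0.73. Among all genes tested, 16.3% were higher and 14.6% lower. HSFB1 (AT4G36990), a repressor of heat-inducible HSF genes that also controls the growth-to-defence switch, had 118 and 195 RPKM at 0.5 h and 24.4 and 36.7 RPKM at 0 h. Its log2 change was 2.30 ± 0.30 (limma adjusted p = 0.00341), but its values equal those of the locus AT4G36988 in every library, and its shared-read fraction is 1. HSFA4C (AT5G45710), a relative of HSFA4A, had 23.47 and 26.95 RPKM at 0.5 h and 9.51 and 11.1 RPKM at 0 h, a log2 change of 1.21 ± 0.14 (limma adjusted p = 0.00242). HSFA7A (AT3G51910) had 121 and 103 RPKM at 0.5 h and 67.6 and 66.5 RPKM at 0 h, where it was the most abundant of the 21 HSF genes. Its log2 change of 0.73 ± 0.13 (limma adjusted p = 0.012) lost its call with quantile normalization (adjusted p = 0.0549) and without the first glutamate library (0.0584).

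HSFC1 (AT3G24520), the single class C member, was lower, with 1.11 and 1.38 RPKM at 0.5 h and 3.38 and 3.12 RPKM at 0 h (log2 change -0.92 ± 0.15, limma adjusted p = 0.00747, and 0.0586 without the filter). A fraction of 0.889 of its reads is marked as shared, and AT3G24518 overlaps it by 1808 bases on the other strand. HSFA5, HSFB3 and HSFB4 did not pass, with log2 changes of -0.22, 0.87 and 0.36. For HSFB3, at 1.27 and 2.82 RPKM at 0.5 h and 0.496 and 0.730 RPKM at 0 h (limma adjusted p = 0.0656), the call rested on single libraries. It was called higher in limma without the first glutamate library (log2 change 1.25, adjusted p = 0.00279) and without the second 0 h library (0.98, adjusted p = 0.0426), and its log2 change was 0.50 without the second glutamate library (adjusted p = 0.187). HSFA6A, HSFA6B, HSFA7B and HSFA9 lay below the level for testing. Of these HSFA6B had 36 and 39 reads at 0.5 h against 6 and 2 at 0 h, and HSFA6A 4 and 5 reads against 40 and 19.

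Genes whose products act on HSF proteins or HSF genes included both chaperones and transcription factors. Of these 14 genes, listed with earlier results of these data known, 9 were higher, 1 lower and 4 not called. Their median log2 change was 1.70. Among all genes tested, 16.3% were higher and 14.6% lower. DREB2A (AT5G05410), known as an activator of HSFA3, had 185 and 150 RPKM at 0.5 h and 23.3 and 18.16 RPKM at 0 h. Its log2 change was 2.95 ± 0.18 (limma adjusted p = 0.000241). A link to the rise of HSFA3 was not tested. DREB2C (AT2G40340), known as another activator of HSFA3, was the lower member, with 6.56 and 7.61 RPKM at 0.5 h and 12.4 and 11.9 RPKM at 0 h (limma adjusted p = 0.0125). Its call was lost in limma without the filter (adjusted p = 0.0514) and without the first glutamate library (0.069). MBF1C (AT3G24500), a coactivator of the heat response, had 200.4 and 196 RPKM at 0.5 h against 19.8 and 26.6 RPKM at 0 h, with a shared-read fraction of 0.138.

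Cytosolic HSP70 and HSP90 chaperones bind HSFA1 proteins and hold them inactive. The stress-induced forms HSP70-4 and HSP90.1 were higher, and so were HSP70-3 and HSP90.2. HSP70-3 (AT3G09440) had 578 and 359 RPKM at 0.5 h and 170 and 109 RPKM at 0 h (limma adjusted p = 0.00998). HSP90.2 (AT5G56030) had 241 and 142 RPKM at 0.5 h and 72 and 46.5 RPKM at 0 h (limma adjusted p = 0.0133). Without the filter, HSP70-3 and HSP90.2 lost their calls (limma adjusted p = 0.0904 and 0.104). HSP70-4 (AT3G12580) had 573 and 316 RPKM at 0.5 h and 19.0 and 11.3 RPKM at 0 h, a log2 change of 4.77 ± 0.35 (limma adjusted p = 0.00046). HSP90.1 (AT5G52640) had 142 and 83.8 RPKM at 0.5 h and 11.7 and 7.12 RPKM at 0 h, a log2 change of 3.44 ± 0.32 (limma adjusted p = 0.00103). HSP70B (AT1G16030), listed among the HSF targets, had 4.29 and 3.15 RPKM at 0.5 h and 4.02 and 2.82 RPKM at 0 h. Its groups overlapped, and its log2 change of 0.098 did not pass (limma adjusted p = 0.7565). The constitutive HSC70-1 (AT5G02500) had 1161 and 836 RPKM at 0.5 h and 1019 and 787 RPKM at 0 h, and its groups overlapped. HSBP (AT4G15802), whose protein binds HSFs and damps their activity, had 69.4 and 73.8 RPKM at 0.5 h and 54.4 and 64.6 RPKM at 0 h, and its log2 change of 0.27 ± 0.14 did not pass (limma adjusted p = 0.209). HSC70-1, HSBP, HSP70B, HSP70-3 and HSP90.2 were named after their values were seen.

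Of 19 known HSF target genes 15 were tested, 9 were higher and 0 lower in limma, with a median log2 change of 2.12. Among all genes tested, 16.3% were higher and 14.6% lower. The target list, too, was chosen with earlier results of these data known. The count of lower targets was also 0 at an unadjusted p under 0.05 and in limma with voom weights. ZAT12 (AT5G59820), a zinc finger gene of the oxidative stress response, had 517 and 622 RPKM at 0.5 h and 29.3 and 32.7 RPKM at 0 h. HSP101 (AT1G74310), the disaggregase needed for acquired heat tolerance, had 59.0 and 35.3 RPKM at 0.5 h and 2.26 and 1.52 RPKM at 0 h, a log2 change of 4.03 ± 0.27 (limma adjusted p = 0.000345). The co-chaperone gene HOP3 (AT4G12400) had 61.3 and 43.7 RPKM at 0.5 h and 2.68 and 2.15 RPKM at 0 h. HSP17.4 (AT3G46230), a small heat shock protein gene, had 32.8 and 22.5 RPKM at 0.5 h and 4.45 and 1.66 RPKM at 0 h (limma adjusted p = 0.00324, and 0.0508 without the filter). The 0.5 h libraries lay above the 0 h libraries in all of these genes.

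HSP23.5, BAG6, FES1A, HSP17.6A and GOLS1 of the target list were also called higher in limma, with log2 changes from 0.76 (GOLS1) to 2.75 (HSP23.5). The call of HSP17.6A was lost without the filter (limma adjusted p = 0.165). Some other heat-inducible genes were low in both groups. The target genes named in this paragraph were chosen after their values were seen. HSP18.2 (AT5G59720), which encodes a small heat shock protein, had 2.20 and 1.28 RPKM at 0.5 h and 3.99 and 0.992 RPKM at 0 h, and its groups overlapped (limma adjusted p = 0.747). Without the second 0 h library it was called lower, with a log2 change of -0.89 (limma adjusted p = 0.0297). HSP21, HSP22, HSP23.6 and APX2, classical markers of heat stress, did not reach the mean for testing, and none of them exceeded 1.30 RPKM in any library. APX2, a known target of HSFA2, had 0 and 1 reads at 0.5 h and 3 and 1 reads at 0 h, which leaves no difference detectable at this depth. In the target list, 13 of the 15 tested genes were higher in replicate 1 than in replicate 2 in both groups, against 38.2% of all genes tested. The same was so for 9 of the 14 regulators, for all 6 shoot markers and for 3 of the 10 HSF genes. The part of this library difference in the results was not tested, and HSFA2, HSFA3, HSFB2A, HSFB2B, HSFA8 and HSFA4A passed in limma whichever single library was left out.

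**Figure D4:**
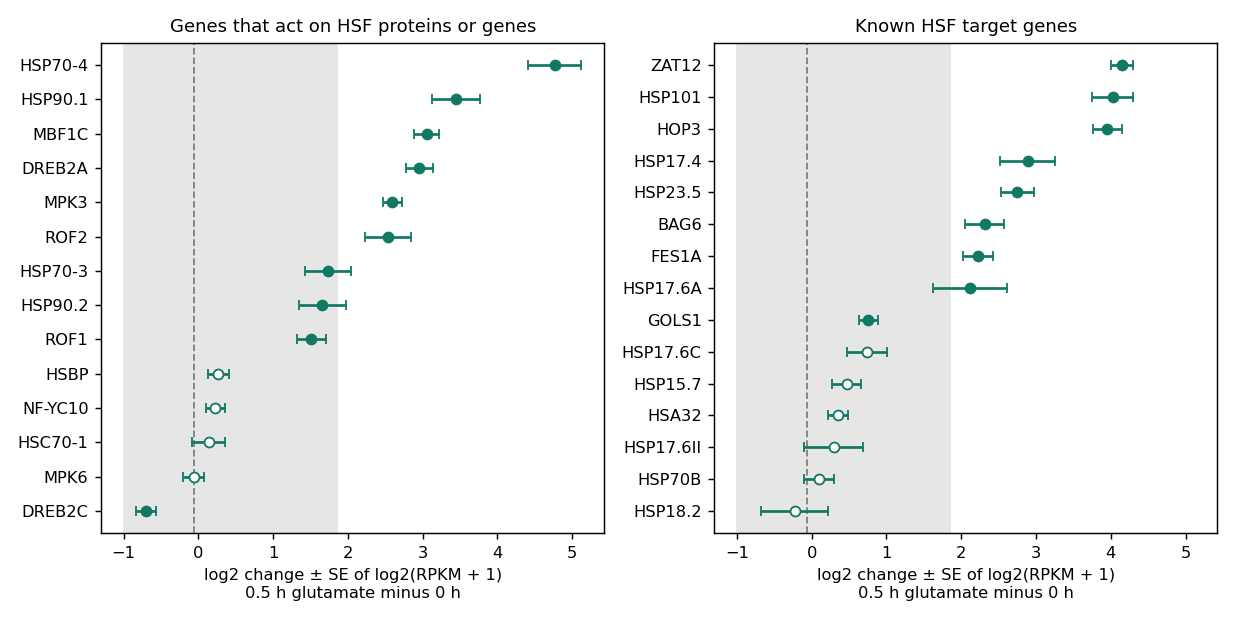
Log2 change of log2(RPKM + 1) with its standard error (0.5 h glutamate minus 0 h, n = 2 each) for 14 genes that act on HSFs (left) and 15 tested HSF target genes (right), with open symbols at an adjusted p of 0.05 or more in limma. The grey band holds the central 90% of all genes tested, from -0.99 to 1.85; 6 regulators and 8 targets lie to its right, while HSP18.2 and HSP70B lie inside it near 0.

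Among the other tested genes, the profiles nearest to that of HSFA3 over the 4 libraries were those of YUC5 (AT5G43890), an auxin synthesis gene, and of the loci AT2G39650 and AT1G33760. Their Euclidean distances from HSFA3, in centred log2(RPKM + 1) units, were 0.0795, 0.111 and 0.131. YUC5 had 52.5 and 63.1 RPKM at 0.5 h and 1.02 and 1.07 RPKM at 0 h, and AT2G39650 had 117 and 147 RPKM at 0.5 h and 3.80 and 4.17 RPKM at 0 h. AT1G33760 had 27.1 and 28.3 RPKM at 0.5 h but only 0.0723 and 0.0827 RPKM at 0 h. Its nearness to HSFA3 therefore depends on the 1 RPKM added to every value. With 4 libraries in 2 groups such likeness rests mainly on the size of the change on that scale.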

How the data were processed

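RNA-seq was done on whole seedlings, 2 libraries per group. The authors deposited 1 table of RPKM values per gene and library, with a TMM-type scaling per its name; the genome build was TAIR10 and SAMtools was among the tools, per the submitters' processing notes. Aligner, counter, strandedness and versions were not given in these sources. The deposited fraction maxMultiRatio is not defined in the header and was read as the share of reads that could also be given to another locus. RPKM times length steps in whole reads plus an offset, so reads were recovered; they were whole within 0.01 for at least 99.9% of genes with a fraction of 0 and for 85.3% to 86.2% of all genes, and no count model was used.

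Genes averaging 1 RPKM or more over the libraries were tested on log2(RPKM + 1) with limma 3.58.1 in R 4.3.3 (mean-variance trend, two-sided, Benjamini-Hochberg over all 17750 genes). With 2 residual degrees of freedom the test leans on a variance prior worth 3.49 degrees of freedom. The steps were tested on simulated reads, drawn independently for each library with the same dispersion for all genes. Those reads lack the deviations that same-numbered libraries share (described below), so they do not show the error rate in these data. Alternatives were other pseudocounts, filters, scalings, voom weights, a replicate block and each library left out.

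The members and gene lists were chosen with earlier results of these data known. All 10 members and the other HSF genes were named. Of the regulator and target lists, the 4 largest called changes and the largest in the rarer direction were named by rule. Any further gene of these lists was named outside that rule, after its values were seen. Coordinates and sequence are RefSeq TAIR10.1; 32835 of 33602 identifiers matched its gene table.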

Additional observations from a re-analysis of the deposited data

How the results depend on the processing

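Over the 15 alternatives, the 10 HSF genes gave 148 fitted values, of which 140 kept both direction and side of the threshold, 8 lost their call and 0 turned direction. HSFA2 stayed between 3.39 and 5.16 and HSFA3 between 3.77 and 5.21 on the log2 scale used. Of the lost calls 7 were those of HSFA1D and 1 that of HSFA1E. The count of lower HSF genes was 1 without the filter and 1 with a mean of at least 5 RPKM, where HSFA1D and HSFA1E were no longer tested. Of 533 values of 36 other listed genes, 9 lost and 10 gained a call. Over all genes, 1335 were lower without the filter and 4361 with library totals, against 2585. The difference in the share of the family sum was 22.3 percentage points without HSFB1, an alternative chosen after the data were seen, as was the longer promoter window. The causes of these shifts were not tested.

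Replicate numbers are shared between groups but no label says that they pair libraries. Deviations of same-numbered libraries correlated across genes (r = 0.60). With a replicate block, 4445 genes were higher and 5280 lower, so 54.8% of all genes tested were called, against 30.8% without it. The gains among listed genes below stand beside that wider rise. The HSF genes kept their 7 higher and 2 lower calls. The block raised the called targets to 12, against 9, by HSP17.6C, HSP15.7 and HSA32, and the called regulators to 11, against 10, by HSBP (limma adjusted p = 0.0266). It also called HSFB3 (limma adjusted p = 0.00626) and lost no call among the listed genes. Leaving out a library leaves 1 sample in a group, assumed to vary like the others. Fold changes of genes at a few reads, such as HSFA7B and APX2, are limited by depth.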

Other observations

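Protein-coding genes with a triple heat shock element within 300 bases upstream of the annotated start numbered 128, of which 84 were tested. Of these 23 were higher and 12 lower after 0.5 h of glutamate in limma, so 27.4% were higher, against 16.4% of the 17131 tested genes that have such a window. Their median log2 change was 0.08, against -0.06 for those genes. Genes with a paired element were higher in 19.3% of 3249 cases. This count was added after the promoters of the HSF genes had been read, and it was not tested.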
